A study of Mus musculus with 6 samples.

Results

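The genes described here encode the proteins of oxidative phosphorylation: the 4 respiratory chain complexes (I to IV) and ATP synthase (complex V). They were chosen by symbol among the protein-coding genes of the deposited count table, and 98 rows matched. Of these, 95 had at least 10 counts over the 6 libraries and are the members, out of 55487 genes in the table. The other 3 (Cox7b2, Cox8c and a second row named Atp5o) had 0 counts in every library, where a count of 0 allows up to 3 counts per library, for counting error only. The second Atp5o row shares exon bases with the counted Atp5o, and reads in such overlaps were dropped. That limit therefore does not bound its expression, and the level of the counted Atp5o is uncertain. The members fall into 74 nuclear genes for subunits present in most tissues (35 of complex I, 4 of complex II, 8 of complex III, 11 of complex IV and 16 of complex V), 13 genes encoded by mitochondrial DNA, 3 isoform genes of striated muscle (Cox6a2, Cox7a1 and Cox8b), 3 other isoform genes of restricted tissues (Cox4i2, Cox6b2 and Ndufa4l2), and 2 genes that the symbols bring in although they are not counted as subunits here (Cox7a2l and Atp5s). All 95 passed the filter on low counts.

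The RNA came from mouse whole dorsal skin taken on day 2. There were 3 samples of control skin and 3 of skin that received DPCP (diphenylcyclopropenone), a contact sensitizer that provokes an allergic inflammation of the skin. The comparison asks how gene expression in DPCP skin differed from that in control skin. The labels name no strain, sex, age or dose, and they do not state what was applied to the control skin or whether each sample was a separate animal, so the p-values measure only the spread between these samples, which may be technical. Library totals were 28346992 to 38846787 counts.

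The respiratory chain passes electrons from NADH (complex I) and succinate (complex II) through ubiquinone, complex III and cytochrome c to oxygen (complex IV), and ATP synthase uses the resulting proton gradient to make ATP. Most subunits are encoded in the nucleus and imported, while a core set of complexes I, III, IV and V is encoded by mitochondrial DNA. The mitochondrial genes are transcribed as long precursors that are cut into smaller RNAs. Some of these RNAs hold neighbouring genes together (mt-Nd4l with mt-Nd4, and mt-Atp8 with mt-Atp6). Complex IV has small subunits that exist as a ubiquitous isoform and as a second isoform found in heart, skeletal muscle and, for some, brown fat. Mouse skin holds a thin sheet of skeletal muscle, the panniculus carnosus, beneath its fat layer.

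The 3 muscle isoform genes fell about 3-fold in DPCP skin while their ubiquitous partners rose, and most other members moved little. A gene was called where edgeR's quasi-likelihood test gave an adjusted p (Benjamini-Hochberg, over all 18259 genes tested) under 0.05. By that rule 46.1% of all tested genes were called, 22.8% higher and 23.3% lower in DPCP skin. Of the 74 nuclear subunit genes, 18 rose, 4 fell and 52 were not called, so 29.7% were called. With library totals as the only scaling, 11 rose and 8 fell, so the split between rises and falls depended on the scaling. The median log2 fold change (DPCP over control) of these 74 genes was 0.08, against -0.01 over all tested genes. Their log2 fold changes ran from -0.68 to 0.56, none reached a 2-fold change, and 53 of the 74 lay within 0.25 of 0. Across all tested genes 18.8% reached 2-fold and 33.0% lay within 0.25 of 0. Among protein-coding genes with a mean of at least 20 CPM (a gene's counts relative to the library total, scaled by edgeR's TMM factors), a comparison set chosen after the values were seen, 54.3% were called, 29.4% higher and 24.9% lower, and 40.6% lay within 0.25 of 0. The share of subunit genes called was thus below the background in both sets, and the share that rose was 24.3%.

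**Figure D1:**
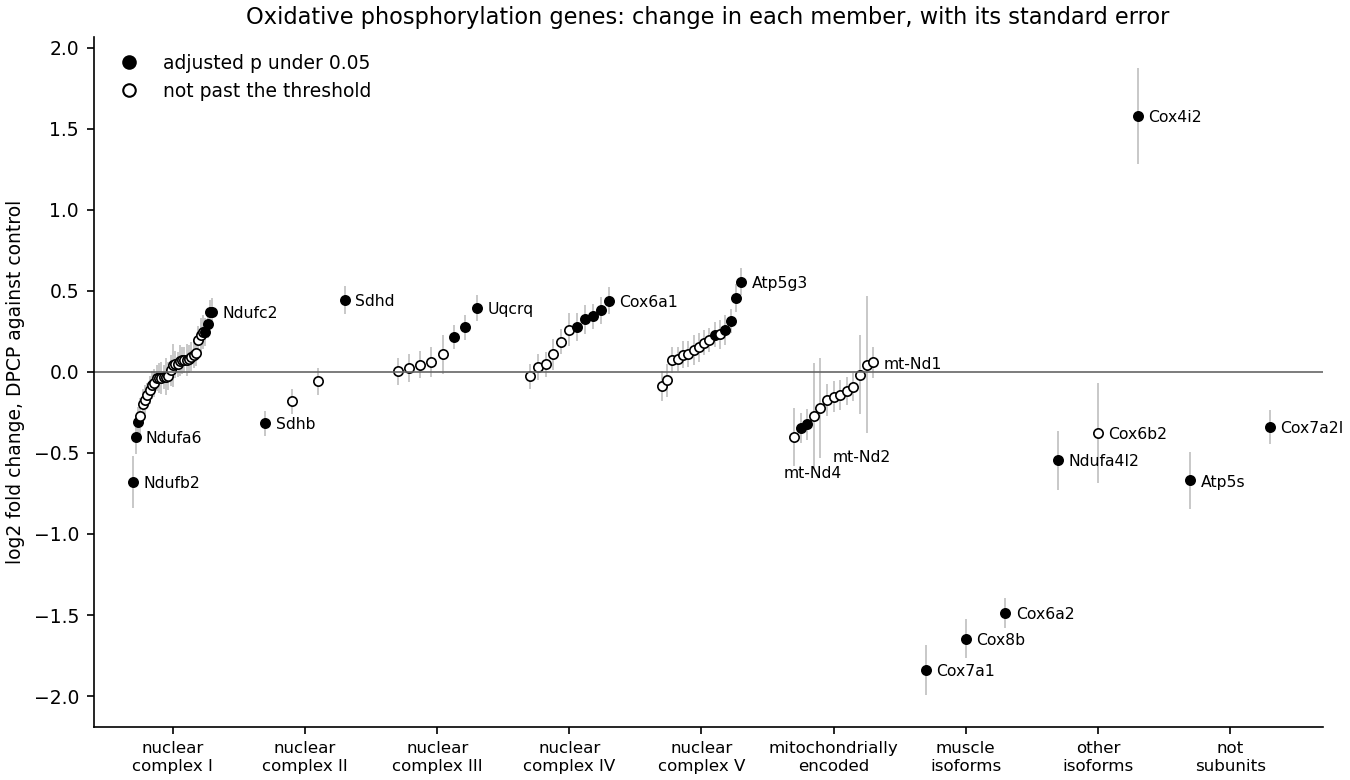
Log2 fold change of each of the 95 members (y axis, DPCP against control, bars of 1 standard error), grouped by complex and class along the x axis, with filled points for genes past the adjusted p threshold of 0.05. The nuclear subunits lie between -0.68 and 0.56, the 3 muscle isoforms between -1.84 and -1.49, and Cox4i2 at 1.58.

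Summed over the nuclear subunit genes of each complex, levels separated by complex. Complex I subunits summed to 2403, 2296 and 2421 CPM in control and 2409, 2435 and 2360.3 CPM in DPCP libraries. These groups overlapped. Complex IV subunits summed to 1454, 1352 and 1440.1 CPM in control and 1667, 1644 and 1613 CPM in DPCP libraries. Complex V subunits summed to 3275, 3194 and 3385 CPM in control and 3755, 3786 and 3719 CPM in DPCP libraries, and complex III subunits to 974 to 1009 CPM and 1074 to 1098 CPM. For complexes III, IV and V every DPCP library lay above every control library, both in CPM and as a share of all counts. The complex II sum in CPM was slightly lower, at 596 to 602 CPM in control and 557 to 593 CPM in DPCP libraries, without overlap. The log2 ratio of its mean sums was only -0.06. Its direction depended on the measure: per kilobase of exon the sum was 230 ± 3.4 in control and 238 ± 9.8 in DPCP skin (SD, n = 3). For single genes, 28.6% of all tested genes had every DPCP library above every control library and 29.4% had every one below. In the protein-coding set at 20 CPM or more these shares were 35.8% and 29.9%. The counts for the subunit genes were 29 above and 8 below of 74.

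Cox6a2, Cox7a1 and Cox8b encode the muscle forms of subunits VIa, VIIa and VIII of cytochrome c oxidase (complex IV), the enzyme that reduces oxygen. All 3 lie on chromosome 7 of GRCm38, far apart: Cox7a1 (ENSMUSG00000074218) at 30184144 to 30186078, Cox6a2 (ENSMUSG00000030785) at 128205435 to 128206387 and Cox8b (ENSMUSG00000025488) at 140898945 to 140900446. Cox6a2 stood at 124, 108 and 119.8 CPM in the control libraries and at 38.9, 41.5 and 45.0 CPM in the DPCP libraries. Its log2 fold change was -1.49 ± 0.09 (SE), with an adjusted p of 1.65e-05 by edgeR's quasi-likelihood test with Benjamini-Hochberg adjustment. Cox6a2 shares exon bases with Itgad, so reads in that stretch were not counted. Cox8b stood at 47.2, 40.3 and 43.6 CPM in control and 12.1, 13.9 and 15.9 CPM in DPCP libraries, a log2 fold change of -1.65 ± 0.12 (adjusted p 3.11e-05). Cox7a1 stood at 19.7, 18.3 and 19.6 CPM in control and 4.93, 6.56 and 4.57 CPM in DPCP libraries, a log2 fold change of -1.84 ± 0.16 (adjusted p 5.92e-05). For each of the 3 genes the groups were far apart, and control skin held between 2.81 and 3.58 times the level of DPCP skin. In a bulk sample, fewer cells of a type and less RNA per cell cannot be told apart.

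The ubiquitous partners rose modestly. Cox6a1 went from 143, 131 and 141 CPM to 189, 178 and 195 CPM, a log2 fold change of 0.44 ± 0.08 (adjusted p 0.00296). Cox7a2 went from 83.2, 75.5 and 86.0 CPM to 105, 106 and 94.9 CPM, a log2 fold change of 0.32 ± 0.09 (adjusted p 0.0163). Cox8a went from 131, 118 and 122 CPM to 159.9, 152 and 159 CPM, a log2 fold change of 0.34 ± 0.08 (adjusted p 0.00848). The groups did not overlap for any of these 3 genes. CPM per kilobase of exon gives a rough scale for comparing levels of different genes. The length covers the exons of every annotated transcript, and in Cox6a2 also the bases shared with Itgad, where reads were dropped. On that scale control skin held 172 CPM of Cox6a2 beside 197 of Cox6a1. It held 121 of Cox8b beside 200.02 of Cox8a, and 35.9 of Cox7a1 beside 86.4 of Cox7a2. By this rough scale the muscle form was close to the ubiquitous form for subunit VIa in control skin and well below it for the other pairs.

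**Figure D2:**
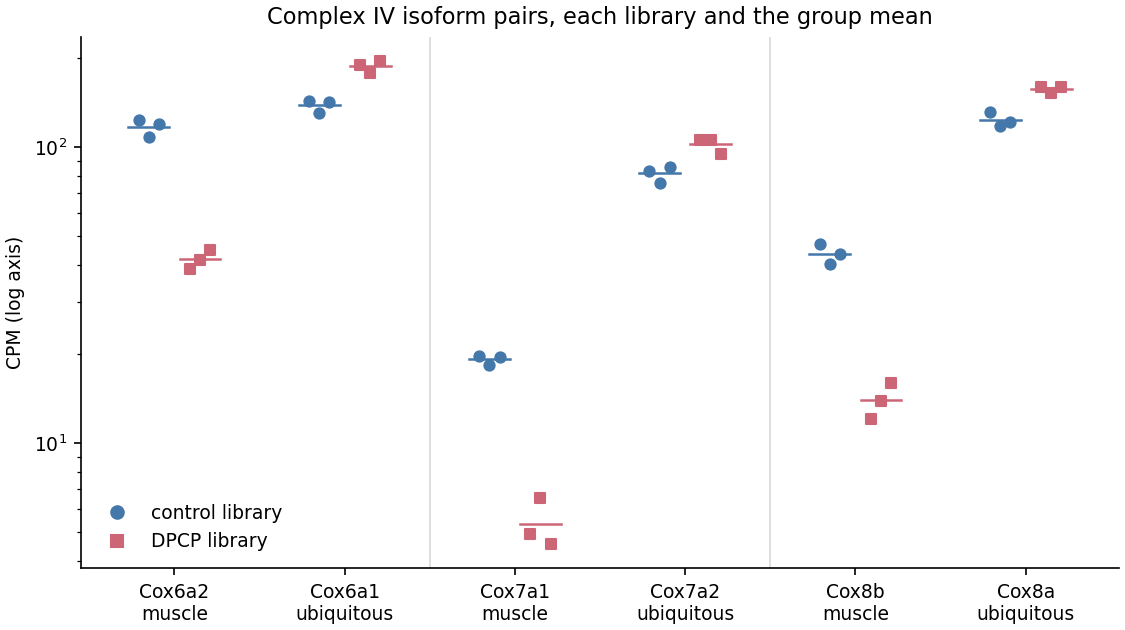
Level of each muscle isoform and its ubiquitous partner (x axis) in every library, in CPM on a log axis (y axis), with a line at the mean of each group of 3. Muscle isoforms are lower and partners higher in every DPCP library than in every control library.

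The ratio of the muscle form to its partner within a library does not depend on how libraries are scaled. The log2 ratio of Cox6a2 to Cox6a1 counts was -0.24 ± 0.03 (SD, n = 3) in control and -2.17 ± 0.10 (SD, n = 3) in DPCP skin. For Cox7a1 over Cox7a2 it was -2.08 ± 0.05 and -4.27 ± 0.22, and for Cox8b over Cox8a -1.50 ± 0.04 and -3.50 ± 0.21. The differences of -1.93, -2.18 and -1.99 exceeded the spread between libraries in each pair, and the groups did not overlap. An exact 2-sided permutation test gave p = 0.1 for each of the 3 ratios, the smallest value that 3 libraries against 3 allow, so this design could not reach 0.05. Expressed as counts, 1.18 Cox6a1 counts accompanied each Cox6a2 count in control skin and 4.49 in DPCP skin.

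Markers of skeletal muscle fibres moved with these genes. Of 24 such markers, 22 were tested, and 17 fell, 2 rose (Actn2 and Tnni1) and 3 were not called. Their log2 fold changes had a median of -1.30 and ran from -2.14 to 2.85. The summed level of the 24 markers was 18168 to 23328 CPM in control and 5618 to 10550.3 CPM in DPCP libraries, without overlap. Tnnc2 and Myh7 were counted near 0 in both groups, but both share exon bases with other genes (Tnnc2 with Ube2c) and reads in such overlaps were dropped, so their levels are uncertain. Ckm, the creatine kinase of muscle and 1 of the 24, changed by -1.68 on the log2 scale (adjusted p 0.000160). Relative to the markers the isoforms gave no single picture. Over the ratios to each of the 22 tested markers, computed after the values were seen and given without a test, Cox6a2 overlapped between groups in 16, was lower in every DPCP library in 5 and higher in 1 (Mb, myoglobin), with a median change in log2 ratio of -0.18. Cox7a1 overlapped in 12 and was lower in 10 (median -0.55), and Cox8b overlapped in 13, was lower in 8 and higher in 1, again Mb (median -0.34). For each isoform the lower ratios include those to Actn2 and Tnni1, which rose, and to Tnnt1, which was not called. In the control libraries Tnni1 had only 4 to 10 counts and Tnnt1 28 to 80. The markers' part in the fall of the isoforms was not tested. Brown fat also expresses Cox7a1 and Cox8b, which are themselves on the brown and beige adipocyte list of 7 genes. Ucp1, the defining gene of that list, was near 0, at 0.116 ± 0.057 CPM in control and 0.129 ± 0.068 CPM in DPCP skin (SD, n = 3). Of the 5 genes on the list other than these isoforms, 1 rose (Dio2), 1 fell (Ppargc1a), 2 were not called and Ucp1 was not tested. The summed level of these 5 genes was 157 to 267 CPM in control and 167 to 285 CPM in DPCP libraries, with overlap.

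**Figure D3:**
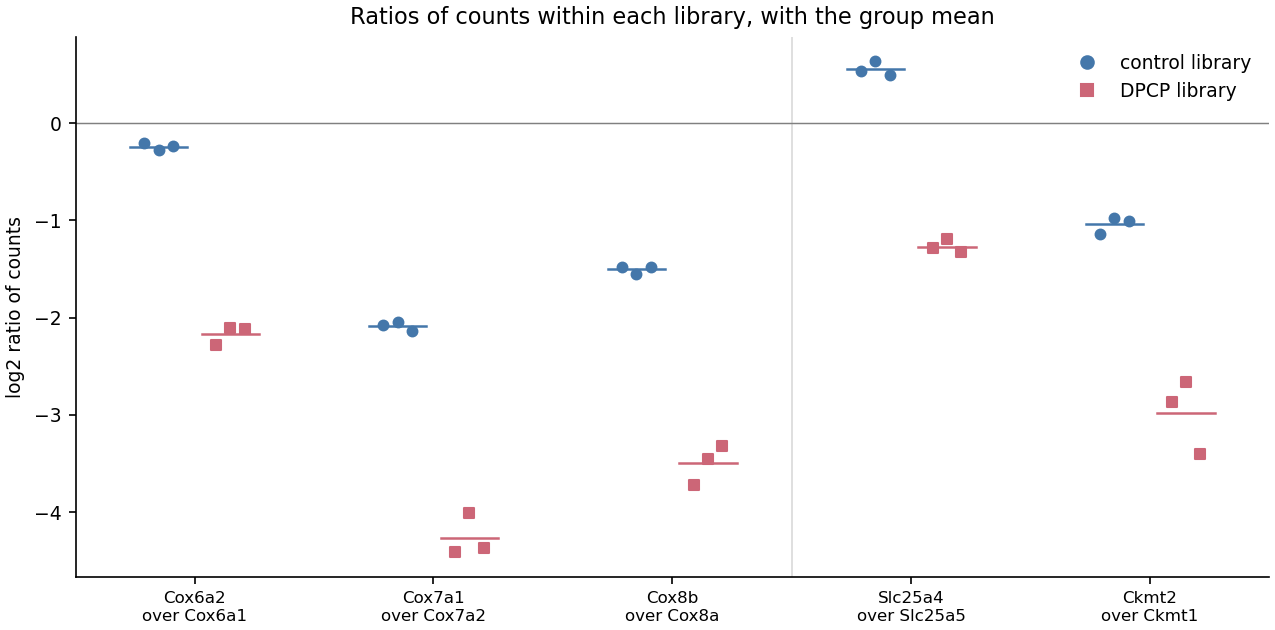
Log2 ratio of counts (y axis) within each library for the 3 muscle and ubiquitous pairs of complex IV and for the carrier and creatine kinase pairs Slc25a4 over Slc25a5 and Ckmt2 over Ckmt1 (x axis), with lines at group means. The DPCP libraries lie below the control libraries in all 5 ratios.

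Promoters are shown for the isoform pair of subunit VIII, whose members moved in opposite directions, as did those of the other isoform pairs. The sequences come from RefSeq on GRCm38.p6 and run from 250 bases before to 50 bases after the annotated start, 5′ to 3′ on the strand of the gene. Of the 82 nuclear members, 67 were matched by symbol, with 72 promoters. Among the unmatched genes were Atp5mpl, Cox4i1, Cox4i2, Cox6a2, Ndufa4l2, Sdhc and Uqcrq. Capitals mark matches, on either strand, to CAGCTG (an E-box bound by MyoD, a muscle regulator) in Cox8b and to CCGGAAG (the core bound by GABPA, also named NRF2, a regulator of respiratory chain genes), read as CTTCCGG on the opposite strand, in Cox8a.
Cox8b promoter, chr7:140900397-140900696, minus strand: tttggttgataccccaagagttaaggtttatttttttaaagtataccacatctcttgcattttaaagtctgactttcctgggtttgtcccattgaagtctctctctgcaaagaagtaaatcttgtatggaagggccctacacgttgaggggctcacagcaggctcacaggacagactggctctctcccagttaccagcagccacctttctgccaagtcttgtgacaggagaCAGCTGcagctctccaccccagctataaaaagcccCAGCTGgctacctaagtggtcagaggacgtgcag
Cox8a promoter, chr19:7217567-7217866, minus strand: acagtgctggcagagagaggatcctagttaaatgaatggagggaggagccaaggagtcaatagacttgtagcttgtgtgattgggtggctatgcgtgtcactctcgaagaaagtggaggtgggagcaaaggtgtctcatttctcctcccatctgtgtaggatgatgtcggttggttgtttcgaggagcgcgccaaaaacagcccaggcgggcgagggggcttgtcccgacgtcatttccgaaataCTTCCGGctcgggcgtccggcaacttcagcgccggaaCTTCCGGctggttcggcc
The Cox8b promoter held 2 E-box matches and the Cox8a promoter 2 GABPA matches, none of which overlapped. The pair of subunit VIIa, also matched, did not show this pattern. The Cox7a1 promoter held 0 matches to the letters searched. The Cox7a2 promoter held 1, to GGGCGG (a box bound by SP1), and lacked the GABPA letters. The E-box letters occurred in 16.3% of all 32851 promoters of this length and the GABPA letters in 8.86%. A match is a run of letters and not a measured site.

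Complex I, which takes electrons from NADH, had 7 called genes among 35 (20%), against 2 of 4, 3 of 8, 5 of 11 and 5 of 16 in complexes II to V. The latter shares were 50%, 37.5%, 45.5% and 31.25%, beside 46.1% called among all tested genes. Of its 35 nuclear subunit genes, 4 rose, 3 fell and 28 were not called. Their median log2 fold change was 0.04, and there were 22 genes whose groups overlapped. Of the 7 nuclear genes for its conserved catalytic core, only Ndufs8 was called. Of the 28 accessory subunit genes that the symbols match, 3 rose and 3 fell.

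The largest rises in complex I were those of the accessory subunits Ndufc2 and Ndufb7 and of Ndufs8, an iron-sulfur subunit of the core. Ndufb7 stood at 59.2, 58.9 and 60.8 CPM in control and 73.3, 78.8 and 78.8 CPM in DPCP libraries (log2 fold change 0.37 ± 0.08, adjusted p 0.00457). Ndufc2 stood at 57.9, 52.9 and 53.4 CPM in control and 72.7, 73.4 and 66.1 CPM in DPCP libraries (log2 fold change 0.37 ± 0.08, adjusted p 0.00717). Ndufs8 stood at 71.7, 63.4 and 73.8 CPM in control and 85.2, 86.7 and 84.0 CPM in DPCP libraries (log2 fold change 0.29 ± 0.08, adjusted p 0.0212). No DPCP library overlapped a control library in these genes, but Ndufs8 missed the threshold without control replicate 2 (adjusted p 0.0552), without DPCP replicate 2 (0.0549) or with library totals alone (0.0577). Ndufs6, the fourth gene to rise, had a log2 fold change of 0.25 and an adjusted p of 0.0452, which ranged from 0.0450 to 0.114 as each library was left out and stayed under 0.05 only without control replicate 1.

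The 3 complex I genes that fell were all for accessory subunits. Ndufb2 had the lowest level of any ubiquitous subunit gene, 6.81, 7.39 and 8.38 CPM in control and 5.22, 4.84 and 4.06 CPM in DPCP libraries (log2 fold change -0.68 ± 0.16, adjusted p 0.00902). It shares exon bases with Braf, Gm16272 and Gm42420, so reads in those stretches were not counted and its level is uncertain. Ndufa6 went from 97.4, 87.7 and 90.9 CPM to 78.7, 69.0 and 61.1 CPM, a log2 fold change of -0.40 ± 0.11 (adjusted p 0.0140). It was not called without control replicate 1 (adjusted p 0.0589). Ndufv3 went from 89.6, 76.9 and 84.4 CPM to 72.6, 64.3 and 65.7 CPM (log2 fold change -0.31 ± 0.09, adjusted p 0.0235). It lost its call without control replicate 1 (adjusted p 0.1002), control replicate 3 (0.0640), DPCP replicate 2 (0.0695) or DPCP replicate 3 (0.0720). In all 3 genes the control libraries lay above the DPCP libraries.

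**Figure D4:**
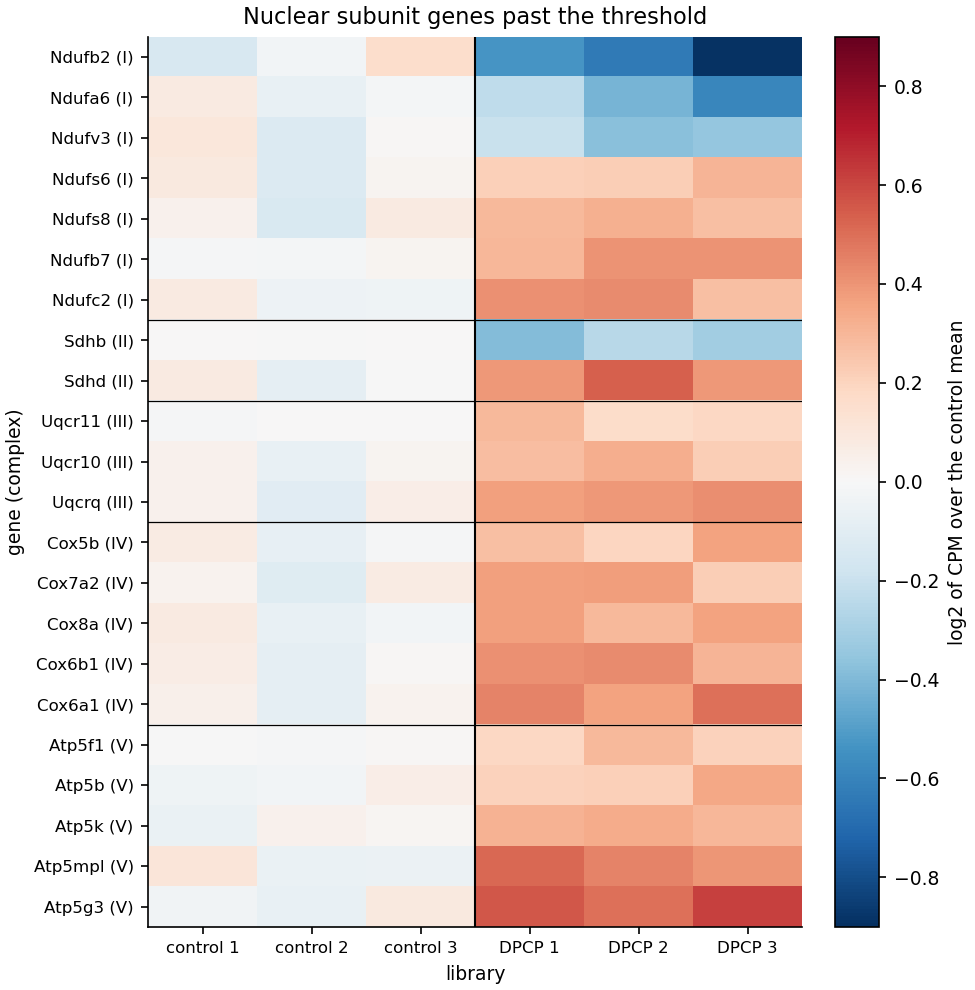
Level of each of the 22 called nuclear subunit genes (y axis, complex in brackets) in every library (x axis), as the log2 of CPM over the gene's control mean, in colour from -0.9 to 0.9. The 18 genes that rose are above their control mean in all 3 DPCP libraries, and the 4 that fell (Ndufb2, Ndufa6, Ndufv3 and Sdhb) are below it.

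Complex II, succinate dehydrogenase, also belongs to the citric acid cycle and has no mitochondrially encoded subunit. Its 4 genes went in different directions. Sdhd, for a membrane anchor subunit, stood at 100.4, 89.8 and 94.6 CPM in control and 125, 138 and 125 CPM in DPCP libraries (log2 fold change 0.44 ± 0.08, adjusted p 0.00321). Sdhb, for the iron-sulfur subunit, stood at 114 CPM in each control library and at 87.0, 96.0 and 91.7 CPM in DPCP libraries (log2 fold change -0.32 ± 0.08, adjusted p 0.00973). Both calls held with each library left out. Sdha, the flavoprotein, was at 280.1, 285 and 277 CPM in control and 237, 249 and 256 CPM in DPCP libraries, without overlap, but its log2 fold change of -0.18 ± 0.08 was not past the threshold (adjusted p 0.0924). It was past it with library totals as the only scaling, at -0.26 (adjusted p 0.0300). Sdhc, the other anchor, overlapped between groups (log2 fold change -0.06 ± 0.08). The log2 ratio of Sdhd to Sdhb counts, a pair chosen after the values were seen and given without a test, was -0.27 ± 0.08 in control and 0.49 ± 0.05 in DPCP skin (SD, n = 3), so that Sdhd had fewer counts than Sdhb in every control library and more in every DPCP library.

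The promoters of Sdhd and of Atp5g3, a subunit gene of ATP synthase, are shown because these had the largest log2 fold changes of complexes II and V. They were also the only 2 of the 62 matched subunit genes whose promoters held TCAAGGTCA, the element bound by estrogen-related receptors, which regulate genes of energy metabolism. Capitals mark matches to TCAAGGTCA (read as TGACCTTGA), CCGGAAG (read as CTTCCGG) and GGGCGG (the box bound by SP1), on either strand and without overlap.
Sdhd promoter, chr9:50603800-50604099, minus strand: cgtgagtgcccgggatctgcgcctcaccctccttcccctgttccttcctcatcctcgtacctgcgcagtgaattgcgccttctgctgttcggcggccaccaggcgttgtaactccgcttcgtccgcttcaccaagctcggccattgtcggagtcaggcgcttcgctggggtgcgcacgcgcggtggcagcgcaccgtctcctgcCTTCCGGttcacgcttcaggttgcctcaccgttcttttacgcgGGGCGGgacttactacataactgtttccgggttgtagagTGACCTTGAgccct
Atp5g3 promoter, chr2:73911277-73911576, minus strand: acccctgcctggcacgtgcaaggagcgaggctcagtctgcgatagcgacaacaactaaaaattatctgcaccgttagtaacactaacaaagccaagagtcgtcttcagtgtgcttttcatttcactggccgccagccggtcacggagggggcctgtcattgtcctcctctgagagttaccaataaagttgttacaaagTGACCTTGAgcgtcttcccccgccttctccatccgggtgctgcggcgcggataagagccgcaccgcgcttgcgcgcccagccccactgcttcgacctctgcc
TCAAGGTCA was present in 0.423% of all 32851 promoters and GGGCGG in 35.7%.

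Complex III moves electrons from ubiquinol to cytochrome c. Of its 8 nuclear subunit genes 3 rose and 0 fell by edgeR's quasi-likelihood test, and the counts were the same at an unadjusted p under 0.05 and by DESeq2. All 3 encode small subunits. Uqcrq stood at 111, 101 and 113 CPM in control and 140.0, 142 and 145 CPM in DPCP libraries (log2 fold change 0.39 ± 0.08, adjusted p 0.00423). Uqcr10 went from 86.1, 80.2 and 85.3 CPM to 101.8, 105 and 97.6 CPM (log2 fold change 0.28 ± 0.08, adjusted p 0.0187). Uqcr11 went from 83.5, 84.4 and 84.4 CPM to 103, 94.3 and 95.9 CPM (log2 fold change 0.22 ± 0.08, adjusted p 0.0447). The groups did not overlap in any of these 3. Uqcr10 missed the threshold without DPCP replicate 2 (adjusted p 0.0579), and Uqcr11 missed it without any of the 6 libraries (0.0604 to 0.118). The core proteins Uqcrc1 and Uqcrc2 and the Rieske iron-sulfur protein Uqcrfs1 overlapped between groups, at log2 fold changes of 0.11, 0.04 and 0.02. The gene for the remaining catalytic subunit, Cyc1 (cytochrome c1), is not matched by the symbols and is given with the electron carriers.

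Complex IV had the largest share of nuclear subunit genes that rose, 5 of 11, with 0 lower by edgeR's quasi-likelihood test (7 higher and 0 lower at an unadjusted p under 0.05, 6 and 0 by DESeq2) and their median log2 fold change was 0.26. Beside the partners of the muscle isoforms, Cox6b1, which bridges the monomers of the enzyme, went from 148, 134 and 142 CPM to 188, 189 and 175 CPM (log2 fold change 0.38 ± 0.08, adjusted p 0.00599). Every DPCP library lay above every control library. Cox5b, a zinc-binding subunit, rose by 0.28 on the log2 scale (adjusted p 0.0283) but missed the threshold without control replicate 2 (adjusted p 0.0741), control replicate 3 (0.0759), DPCP replicate 1 (0.0524) or DPCP replicate 3 (0.0789). Cox4i1, the ubiquitous form of the largest nuclear subunit, was the gene with the lowest log2 fold change, at -0.03 ± 0.08 (adjusted p 0.796), with 171, 183 and 169.7 CPM in control and 177, 166 and 171 CPM in DPCP libraries. Its groups overlapped, as did those of Cox6c, Cox7c and Ndufa4.

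In complex V, ATP synthase, 5 of 16 genes rose and 0 fell by edgeR's quasi-likelihood test (8 and 0 at an unadjusted p under 0.05, 6 and 0 by DESeq2), and the median log2 fold change was 0.17. Atp5g3 encodes the c subunit, which forms the rotating ring in the membrane, and is the only gene of the class past 0.5 on the log2 scale. It stood at 149.8, 146 and 162 CPM in control and 225, 216 and 234 CPM in DPCP libraries (log2 fold change 0.56 ± 0.08, adjusted p 0.00100). The genes Atp5g1 and Atp5g2, which encode the same mature protein, had log2 fold changes of 0.18 and 0.19 and were not called (adjusted p 0.0818 and 0.0602). Per kilobase of exon the control levels of the 3 c subunit genes were 16.3 CPM for Atp5g1, 59.1 for Atp5g2 and 70.0 for Atp5g3. The exon length used for Atp5g1, over all annotated transcripts, is 4912 bases against 1675 and 2181, so these levels compare only roughly. Atp5g1 and Atp5g2 have near-identical copies elsewhere in the genome. With the counts of the copies added their control levels were 24.9 and 60.5 CPM per kilobase, but reads that align to both gene and copy are still missing.

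Among the small membrane subunits of ATP synthase, Atp5mpl went from 51.2, 45.7 and 45.8 CPM to 68.1, 64.7 and 62.8 CPM (log2 fold change 0.46 ± 0.08, adjusted p 0.00271). Atp5k, for subunit e, which takes part in the dimer contacts of the enzyme, went from 46.9, 50.2 and 49.3 CPM to 60.7, 61.4 and 60.0 CPM (log2 fold change 0.32 ± 0.07, adjusted p 0.00903). Both separated the groups without overlap. Atp5b, the catalytic beta subunit and the most abundant nuclear member in CPM, stood at 906, 914 and 968 CPM in control and 1073, 1079 and 1185 CPM in DPCP libraries (log2 fold change 0.26, adjusted p 0.0464). Atp5f1, for the peripheral stalk, had a log2 fold change of 0.23 (adjusted p 0.0418). Both lost their call when any 1 of the 6 libraries was left out, at adjusted p values of 0.0514 to 0.125 for Atp5b and 0.0514 to 0.127 for Atp5f1. Atp5c1, the gamma subunit of the central stalk, had the lowest log2 fold change of the complex, -0.09 ± 0.09 (adjusted p 0.475), and its groups overlapped. Of the 22 called nuclear subunit genes in all 5 complexes, 13 kept their call with each library left out in turn.

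The 13 genes encoded by mitochondrial DNA took a smaller share of the counts in DPCP skin. They held 3.87%, 3.99% and 3.87% of the counts in the control libraries and 3.39%, 3.25% and 3.31% in the DPCP libraries. All 3 DPCP libraries lay below all 3 control libraries, and the difference of -0.59 percentage points exceeded the spread within groups (SD 0.069 percentage points in each). An exact 2-sided permutation test gave p = 0.1, the smallest that 3 against 3 allow. By gene, 11 of 13 log2 fold changes were below 0, with a median of -0.15. By edgeR's quasi-likelihood test 2 fell and 0 rose, or 15.4% called (also 2 and 0 at an unadjusted p under 0.05 and by DESeq2), against 46.1% of all tested genes. In 6 of the 13 genes (mt-Nd2, mt-Nd4, mt-Nd5, mt-Nd6, mt-Cytb and mt-Co1) every DPCP library was below every control library. The same held for 29.4% of all tested genes and 29.9% of the protein-coding set at 20 CPM or more.

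The 2 genes that fell encode membrane subunits of complex I that pump protons. mt-Nd4 stood at 3233, 3274 and 3435 CPM in control and 2653, 2587 and 2567 CPM in DPCP libraries (log2 fold change -0.35 ± 0.09, adjusted p 0.0144). It kept its call with each library left out. mt-Nd2 stood at 3311, 3562 and 3630.1 CPM in control and 2695, 2869 and 2828 CPM in DPCP libraries (log2 fold change -0.32 ± 0.10, adjusted p 0.0235), but it missed the threshold whichever of the 6 libraries was left out (adjusted p 0.0501 to 0.0675). Neither gene's groups overlapped.

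mt-Nd1, the neighbour of mt-Nd2 on the same strand of the mitochondrial DNA, stood at 4446, 4707 and 4703 CPM in control and 4687, 5019 and 4733 CPM in DPCP libraries. Its groups overlapped, and its log2 fold change was 0.06 ± 0.10 (adjusted p 0.641), turning to -0.02 with library totals alone. The log2 ratio of mt-Nd1 to mt-Nd2 counts, chosen after the values were seen and given without a test, was 0.40 ± 0.03 in control and 0.78 ± 0.03 in DPCP skin (SD, n = 3), with no overlap. The mitochondrial genes with the most counted reads were mt-Co1, for the catalytic subunit of complex IV, and mt-Cytb, for cytochrome b of complex III. Reads dropped from other mitochondrial genes prevent a ranking of their messages. Both mt-Co1 and mt-Cytb were lower in every DPCP library but not called. mt-Co1 stood at 14798, 14848 and 14671 CPM against 13143, 13294 and 12806 CPM (log2 fold change -0.18 ± 0.10, adjusted p 0.180). mt-Cytb stood at 6288, 6602 and 6699 CPM against 5858, 5879.9 and 5878 CPM (log2 fold change -0.15 ± 0.10, adjusted p 0.222). mt-Nd5 and mt-Nd6, further complex I subunits, had log2 fold changes of -0.14 and -0.12. Their exons overlap by 14 bases on opposite strands, and reads that touch the overlap were dropped. Reads were counted on either strand, so RNA of the mt-Nd5 strand that runs across mt-Nd6 counts as mt-Nd6. The level and change of mt-Nd6 itself are therefore uncertain.

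**Figure D5:**
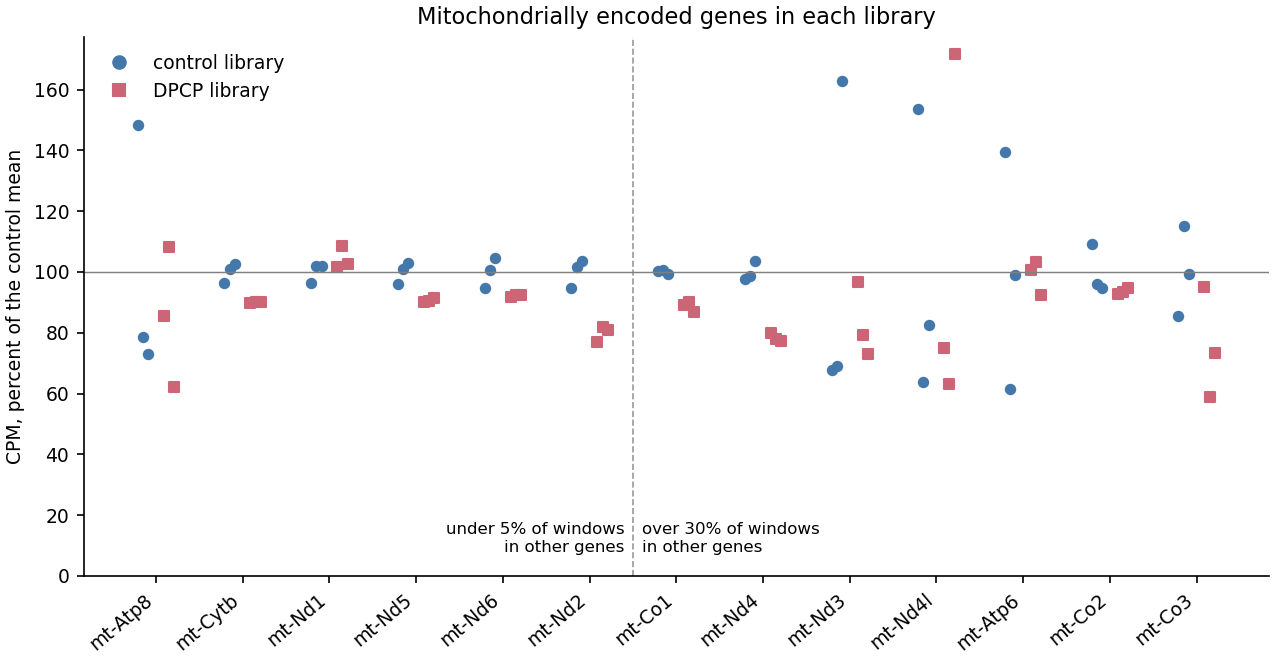
CPM of each mitochondrially encoded gene (x axis) in every library, as a percentage of the gene's control mean (y axis). Genes to the right of the dashed line have 30.8% to 99.9% of their 100-base windows also in other annotated genes, and the scatter between libraries is widest for mt-Nd3, mt-Nd4l, mt-Atp6 and, on the left, mt-Atp8.

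Of the other mitochondrial genes, 7 have copies of much of their sequence in the nuclear genome. Of all 100-base windows of mt-Co3, 99.9% also occurred in another annotated gene, of mt-Co2 and mt-Atp6 99.5%, of mt-Nd4l 98.5%, of mt-Nd3 97.6%, of mt-Nd4 60.8% and of mt-Co1 30.8%, and the main copy of each lay on chromosome 1. Reads that align to several places were not counted, so the levels of these genes are uncertain. mt-Co2, for example, stood at 420 CPM per kilobase in control skin beside 9561 for mt-Co1. Between the libraries the counted remainder varied widely: mt-Nd3 was at 7.32, 7.46 and 17.6 CPM in control and 10.4, 8.55 and 7.85 CPM in DPCP libraries, and mt-Atp6 at 236, 104 and 168 CPM against 170.5, 174 and 156 CPM. mt-Nd4l (log2 fold change 0.05 ± 0.42), mt-Nd3 (-0.27 ± 0.33), mt-Atp6 (-0.02 ± 0.24), mt-Atp8 (-0.22 ± 0.31) and mt-Co2 (-0.09 ± 0.09) overlapped between groups. mt-Atp8 has 0% of its windows in other annotated genes but shares 43 of its 204 bases with mt-Atp6. Only annotated transcripts were searched, so an unannotated copy would have been missed. On chromosome 1 the copies of mt-Co2 and mt-Atp6, the genes on either side of mt-Atp8, lie close together. The level of mt-Atp8 is therefore uncertain too. mt-Co3, a core subunit of complex IV, had a log2 fold change of -0.40 ± 0.18 (adjusted p 0.0939) and was called only without DPCP replicate 1 (-0.60, adjusted p 0.0145). With the counts of the copies added to each gene, an alternative chosen after the values were seen, mt-Nd4 and mt-Nd2 had log2 fold changes of -0.35 and -0.32 (adjusted p 0.0147 and 0.0237). Their copies held only 7131 and 567 counts over all libraries, so the sum could hardly move these values. Reads that align to both gene and copy are missing from both counts, and the sum does not restore them. The 6 genes with under 5% of windows in other annotated genes were mt-Nd1, mt-Nd2, mt-Nd5, mt-Nd6, mt-Cytb and mt-Atp8. They took 1.93% to 2.05% of the control counts and 1.70% to 1.75% of the DPCP counts, without overlap.

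The remaining isoform genes differed from each other. Cox4i2, the form of subunit IV known from lung and from hypoxic cells, was barely detected, with 12, 18 and 21 counts in control libraries and 54, 72 and 43 in those of DPCP skin, or 0.408, 0.599 and 0.626 CPM against 1.56, 1.97 and 1.38 CPM. It rose by 1.58 ± 0.30 on the log2 scale (adjusted p 0.00283), without overlap, the only member that rose past 2-fold. Ndufa4l2, a paralog of the complex IV subunit Ndufa4 that is known as a hypoxia-induced gene, stood at 89.9, 96.6 and 85.2 CPM in control and 83.3, 48.8 and 54.1 CPM in DPCP libraries. DPCP replicate 1 lay close to the control libraries and the other 2 far below. The log2 fold change of -0.54 ± 0.18 was called (adjusted p 0.0385), but the call held only without DPCP replicate 1 (-0.81, adjusted p 0.000656). It was lost without any other library, with adjusted p values of 0.0888, 0.119 and 0.0604 without control replicates 1, 2 and 3 and of 0.103 and 0.1204 without DPCP replicates 2 and 3. Ndufa4l2 shares exon bases with Shmt2. Cox6b2, the testis form of subunit VIb, was at 1.03 to 2.46 CPM in all libraries and overlapped between groups.

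Both genes that are not counted as subunits fell. Cox7a2l, which helps complexes III and IV to associate, went from 199.99, 190.2 and 165 CPM to 157, 148 and 133 CPM (log2 fold change -0.34 ± 0.10, adjusted p 0.0271). Its call was lost without control replicate 1 (adjusted p 0.110), control replicate 2 (0.0833), DPCP replicate 2 (0.0608) or DPCP replicate 3 (0.0919). Atp5s, a coupling factor named for ATP synthase, went from 11.9, 10.7 and 9.09 CPM to 6.81, 7.76 and 5.34 CPM, a log2 fold change of -0.67 ± 0.18 (adjusted p 0.0144), and it was not called without control replicate 1 (adjusted p 0.0581). The groups of both genes were apart.

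Genes that serve the respiratory chain were read from the same fit. Of 8 genes listed with the electron carriers and cytochrome c1, 3 rose and 2 fell. The list includes Ndufab1, an accessory subunit gene of complex I that the symbols do not match, which was not called (log2 fold change 0.10). Cycs, for cytochrome c itself, rose by 0.44 on the log2 scale (adjusted p 0.00258), from 64.4 ± 2.1 CPM in control to 87.3 ± 5.0 CPM in DPCP skin (SD, n = 3). Cyc1 rose by 0.37 (adjusted p 0.00451), from 106 ± 4.9 to 137 ± 0.87 CPM. Coq9, needed to make ubiquinone, fell by 0.64 on the log2 scale (adjusted p 0.000806) and Etfa, which feeds electrons from fatty acid oxidation, by 0.34 (adjusted p 0.00735). These 4 calls held with each library left out, and Coq9 shares exon bases with Ciapin1.

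Of 15 complex I assembly factors tested, 3 rose (among them Foxred1, by 0.42, and Ndufaf4, by 0.57) and 0 fell by edgeR's quasi-likelihood test (3 and 2 at an unadjusted p under 0.05, 3 and 0 by DESeq2). Of 10 assembly factors of complexes II and III, Uqcc2 rose by 0.34 and Uqcc1 fell by 0.25, the second without a call when any 1 of the libraries was left out (adjusted p 0.0520 to 0.114). Of 19 genes tested from the list of complex IV assembly factors, 6 rose and 1 fell. The heme A synthesis gene Cox10 rose by 0.54 and Coa4 by 0.48. The 1 gene that fell, by 0.78, was Fastkd1, which acts on mitochondrial RNA and is not strictly an assembly factor. Coa4 was not called without control replicate 2 (adjusted p 0.0528) or DPCP replicate 2 (0.0567). Among 4 assembly and inhibitor genes of ATP synthase 0 were called by edgeR's quasi-likelihood test or by DESeq2 (1 higher and 1 lower at an unadjusted p under 0.05), with a median log2 fold change of 0.04. The medians of the first 3 lists were 0.02, -0.14 and 0.17.

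Of 18 regulators of mitochondrial genes, 2 rose, 4 fell and 12 were not called, with a median log2 fold change of -0.01. Ppargc1a (PGC-1 alpha), a coactivator of mitochondrial biogenesis in muscle and brown fat, fell by 1.84 on the log2 scale (adjusted p 5.37e-05), from 9.97 ± 0.87 to 2.79 ± 0.26 CPM, a fall of the same size as that of Cox7a1. Ppara, a regulator of fatty acid oxidation, fell by 1.74 (adjusted p 0.000665), from 10.4 ± 1.7 to 3.12 ± 1.05 CPM. Pprc1, a relative of Ppargc1a, rose by 0.69 (adjusted p 0.00360), and Gabpb1, the partner of GABPA, by 0.33 (adjusted p 0.0188). Gabpb1 was not called without control replicate 1 (adjusted p 0.0644), DPCP replicate 2 (0.0530) or DPCP replicate 3 (0.0506), and Pprc1 and Gabpb1 share exon bases with Ldb1 and Gm27003. Ppargc1a is also on the list of brown and beige adipocyte markers.

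The carriers that exchange ADP for ATP and the mitochondrial creatine kinases also come as muscle and other forms. Slc25a4, the carrier of heart and muscle, fell by 0.99 on the log2 scale (adjusted p 6.81e-05), from 547 ± 11 to 275 ± 16 CPM. Slc25a5, the form of proliferating tissues, rose by 0.83 (adjusted p 0.000198), from 373 ± 26 to 661 ± 9.6 CPM. Ckmt2, the sarcomeric creatine kinase, fell by 1.35 (adjusted p 0.000160), from 84.4 ± 4.1 to 33.1 ± 6.5 CPM, and Ckmt1, the ubiquitous one, rose by 0.57 (adjusted p 0.00294), from 174 ± 12 to 258 ± 30 CPM. The log2 ratio of the muscle form to the other form changed by -1.82 for the carriers and by -1.94 for the creatine kinases, beside -1.93 to -2.18 for the 3 pairs of complex IV. The first 2 of these pairs were chosen after their values were seen, and their differences have no test. Ckmt1 and Ckmt2 share exon bases with Strc and 1700119I11Rik. Of 14 genes of the citric acid cycle, 3 rose and 3 fell, with Sucla2 lower by 0.46 (adjusted p 0.00209) and Suclg2 higher by 0.35 (adjusted p 0.0117), genes for alternative subunits of succinate-CoA ligase.

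Properties that the choice of genes did not use were set beside the changes of the 74 nuclear subunit genes. Log2 fold change and exon length had a Spearman correlation of -0.29 across these genes, which share the same 6 libraries, and it is given as a description. Of the 17 genes with exons of up to 1000 bases in all, 9 rose and 0 fell by edgeR's quasi-likelihood test (10 and 0 at an unadjusted p under 0.05, 9 and 0 by DESeq2), with a median log2 fold change of 0.25. Of the 29 genes above that and up to 2000 bases 5 rose and 1 fell (median 0.06), of the 18 above 2000 and up to 4000 bases 1 rose and 2 fell (median 0.06), and of the 10 longer ones 3 rose and 1 fell (median 0.11). Over all tested genes the median log2 fold change was lower in each longer class, from 0.14 for exons of up to 1000 bases to -0.07 for those over 4000, and the part of length in the result was not tested. Of the 47 subunit genes that share no exon base with another gene, 16 rose and 3 fell, and of the 27 that do, 2 rose and 1 fell. These were 40.4% and 11.1% called, beside 46.1% of all tested genes. The share called among all tested genes was not computed apart by shared exons or by length. The counts of these classes are therefore not set against a like background.

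Promoter letters known from respiratory chain genes were more common among the subunit genes than among all promoters, given here as shares without a test. CCGGAAG was in 23.9% of their 67 promoters against 8.86% of all 32851. The consensus palindrome of NRF1, another regulator of respiratory chain genes, was in 7.46% against 0.971%, and AAGATGGCG (bound by YY1) in 10.4% against 1.40%. GGGCGG was in 37.3% against 35.7%. The muscle letters CAGCTG were in 7.46% against 16.3% and the consensus of MEF2, a further muscle regulator, in 1.49% against 3.69%. The subunit promoters had a median GC content of 58.3%, against 52.7% over all promoters. Of the 16 subunit genes with CCGGAAG 8 rose and 1 fell (median log2 fold change 0.21), and of the 46 without it 8 rose and 3 fell (median 0.08), a difference that was not tested.

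Markers of other cells of the skin also moved between the groups. Of 8 basal and stressed keratinocyte genes 6 rose and 1 fell, with a summed level of 12893 to 15108 CPM in control and 41677 to 50856 CPM in DPCP libraries. Of 7 neutrophil genes 6 rose and 1 fell (148 to 175 against 553 to 1392 CPM), and of 7 macrophage and monocyte genes 4 rose and 0 fell by edgeR's quasi-likelihood test, with the same counts at an unadjusted p under 0.05 and by DESeq2. Of 9 adipocyte genes 2 rose and 3 fell, and of 8 genes of smooth muscle and pericytes 2 rose and 1 fell, with summed levels that overlapped between groups, as did those of the macrophage list. The part of these cell types in the changes of the subunit genes was not tested.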

How the data were processed

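The deposited table holds raw read counts per gene for 6 skin libraries, made by the authors with featureCounts 1.6.2. The annotation, per the file headers, was release 102 of Ensembl for GRCm38. The command recorded there sets no option for strand, pairs, multiple alignments or overlapping genes, so each mate counts alone, on either strand, and ambiguous reads are dropped. The build mm10, the trimmer Trimmomatic (version 0.36), the aligner HISAT2 (version 2.2.1), StringTie (version 2.2.1) and DESeq2 (version 1.34.0) appear in the submitters' processing notes. Per the labels' protocols, polyadenylated RNA was sequenced in pairs of 150 bases from a strand-preserving kit.

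Symbols and biotypes came from GENCODE M21, which matched 55227 of 55487 identifiers. All genes that passed edgeR's default filter (18259) were fitted in R 4.3.3 with edgeR 4.0.16 (TMM factors, quasi-likelihood F-test without covariates, Benjamini-Hochberg adjustment, threshold 0.05), and the members were read from that fit. The fitting step was tested on simulated data. CPM values used TMM-scaled library sizes. Within-library ratios were log2 of counts plus 0.5. Of the members, 39 share an exon base with another gene, and 24 have 100-base windows that also occur in another annotated transcript.

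Members and lists were chosen with earlier results of these data known. The genes named with values are all muscle and other tissue-restricted isoforms with their partners, the 13 mitochondrial genes, the 4 Sdh genes, up to 3 called genes per direction in complexes I, III, IV and V (where none was called, the 1 with the smallest p), and up to 2 called genes per direction of each pathway list. Genes outside this rule (Ndufs6, Cox5b, Atp5b, Atp5f1, Cox7a2l, Atp5s, the c subunit genes, Ckm and members named only with a count) were chosen after their values were seen. Alternatives were other scalings and filters, DESeq2 1.42.0, a replicate block, each library left out, another denominator or pseudocount, and, added later, copies summed and genes without shared exons.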

Additional observations from a re-analysis of the deposited data

How the results depend on the processing

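All 3 muscle isoforms fell under every alternative that was run. Of 18 nuclear subunit genes called higher and 4 called lower, library totals alone gave 11 and 8, and leaving out a library gave 12 to 15 and 2 to 4 (2 without control replicate 1). The count of mitochondrial genes called lower, 2 in the main fit, was 1 to 2 with a library left out. It was 2 only without DPCP replicate 1, where mt-Nd4 and mt-Co3 were called and mt-Nd2 was not. The count was 0 once genes sharing an exon base, among them mt-Nd2 and mt-Nd4, were left out. The cause of the other changes was not tested. The mitochondrial share differed by -0.63 to -0.55 percentage points with a library left out. The ratio changes kept their direction under every alternative.

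Some genes that were not called changed sign. With library totals alone mt-Nd1 was at -0.016 and mt-Nd4l at -0.026, and with copies added mt-Nd4l was at -0.49 and mt-Atp6 at 0.18. As each library was left out, Cox4i1 ran from -0.048 to 0.019, Sdhc from -0.097 to 0.010, mt-Nd3 from -0.47 to 0.28, mt-Nd4l from -0.52 to 0.51, mt-Atp6 from -0.26 to 0.31 and mt-Atp8 from -0.44 to 0.18.

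A replicate block gave 15 higher and 4 lower nuclear subunit genes, 2 lower mitochondrial genes and 3 lower muscle isoforms, with mt-Atp6 at 0.056. Same-numbered libraries deviated together with correlations of 0.046, 0.027 and 0.11, and not every library correlated best with its own number, so the numbers were not taken to pair the libraries. With the block, an exact permutation of the within-number differences gave p = 0.25 for the mitochondrial share (-0.59) and for the 3 ratios, the smallest that 3 pairs allow.

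With 3 libraries a group, genes near the threshold change sides easily, and reads lost to copies and shared exons limit the levels of the genes named for them.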
